A study of Homo sapiens with 24 samples.

Results

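The 8 genes described here encode chromatin regulators and lie on chromosome 1: HDAC1, RBBP4, KDM1A, RBBP5, ASH1L, SETDB1, KDM5B and ARID1A. They were chosen by gene symbol, with earlier results of these data known, and all 8 had a row among the 11579 rows of the deposited expression matrix. The samples were of HEK293, a line derived from human embryonic kidney and widely used for transfection, either untransfected or transiently transfected with a pCMV plasmid. The plasmid was an empty vector (pCMV-flag), flag-tagged wild type EVI1 (EVI1-WT) or flag-tagged EVI1-AQA, in which the serines of an SQS phosphorylation motif are replaced by alanines. Each of these 4 states was left untreated or exposed to 150 uM H2O2 for 8 h, which gave 8 groups of 3 samples, 1 from each of 3 batches, and 24 samples in all. The labelled protocol also names luciferase and renilla reporter plasmids in the transfections, and it does not say which samples received them. A transfected culture holds cells with and without plasmid, so a bulk value cannot tell a change in every cell from a change in the share of cells that responded.

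EVI1 is a zinc finger transcription factor that is active in some myeloid leukaemias and that recruits corepressors, histone deacetylases among them, to its target genes. Histone marks are set by writers and removed by erasers, and both work in multi-subunit complexes. HDAC1 removes acetyl groups from histone tails, RBBP4 is a histone-binding subunit that it shares with several repressive complexes, and KDM1A is the flavin-dependent lysine demethylase of the CoREST deacetylase complex. RBBP5 is a core subunit of the MLL family methyltransferase complexes, whose mark at active promoters is removed by the demethylase KDM5B. ASH1L methylates histone H3 in transcribed chromatin, SETDB1 writes a methyl mark of silent chromatin, and ARID1A is a DNA-binding subunit of the BAF nucleosome remodelling complex.

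On the GRCh38 build, in the GENCODE annotation, HDAC1 (ENSG00000116478) spans chromosome 1 from 32292083 to 32333635 on the plus strand, and RBBP4 (ENSG00000162521) lies 0.318 Mb further along, from 32651142 to 32686211 on the same strand. KDM1A (ENSG00000004487) spans 23019443 to 23083689 and ARID1A (ENSG00000117713) spans 26693236 to 26782104, both on the plus strand of the short arm. On the long arm, SETDB1 (ENSG00000143379) spans 150926263 to 150964744 on the plus strand. ASH1L (ENSG00000116539) spans 155335268 to 155563162, KDM5B (ENSG00000117139) spans 202724495 to 202808487 and RBBP5 (ENSG00000117222) spans 205086142 to 205122015, all on the minus strand. KDM5B and RBBP5 are 2.278 Mb apart. All 8 are annotated as protein coding. The libraries read the 3′ ends of polyadenylated transcripts, and no other gene on the same strand ended or began within 500 bp of the 3′ end of any of the 8. Genes on the opposite strand did so for HDAC1 (MARCKSL1), RBBP4 (SYNC), SETDB1 (CERS2) and KDM1A (LUZP1 and 1 gene without a name), and whether reads were counted by strand is not given in the sources used here. RBBP4 has 7 named pseudogenes and HDAC1 has 2, and reads shared with them could move the values of these genes.

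The promoters of KDM5B, RBBP5 and HDAC1 are shown because KDM5B and RBBP5 had the widest ranges of group means and HDAC1 is the deacetylase of the set. Each sequence is the 250 bases upstream of the RefSeq start on GRCh38.p14, written 5′ to 3′ on the strand of the gene, and capitals mark GGAAG, the core of an ETS-type site. For KDM5B the window is chr1:202808422-202808671 (minus strand), for RBBP5 chr1:205121979-205122228 (minus strand) and for HDAC1 chr1:32291833-32292082 (plus strand).
KDM5B: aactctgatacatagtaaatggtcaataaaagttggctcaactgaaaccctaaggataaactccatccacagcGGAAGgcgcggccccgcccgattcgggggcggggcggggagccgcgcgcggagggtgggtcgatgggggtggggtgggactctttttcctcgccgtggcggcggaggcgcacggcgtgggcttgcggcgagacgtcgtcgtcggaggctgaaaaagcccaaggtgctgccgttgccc
RBBP5: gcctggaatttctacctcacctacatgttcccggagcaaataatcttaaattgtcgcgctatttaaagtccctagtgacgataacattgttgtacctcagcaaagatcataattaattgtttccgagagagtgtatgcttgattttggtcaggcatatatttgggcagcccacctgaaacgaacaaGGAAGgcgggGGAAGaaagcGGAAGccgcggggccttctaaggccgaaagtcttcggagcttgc
HDAC1: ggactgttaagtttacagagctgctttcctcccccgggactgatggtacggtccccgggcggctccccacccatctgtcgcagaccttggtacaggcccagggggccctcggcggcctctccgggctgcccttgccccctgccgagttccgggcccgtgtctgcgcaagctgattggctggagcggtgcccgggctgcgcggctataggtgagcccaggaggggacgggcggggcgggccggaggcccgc

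RBBP5 carried 3 copies of GGAAG in the sense orientation, KDM5B carried 1 and HDAC1 none. All 8 genes were matched in the RefSeq promoter table, with 10 windows, since RBBP4 and SETDB1 each have alternative starts. On either strand, GGAAG was found in 5 of the 8 genes (RBBP4, RBBP5, ASH1L, SETDB1 and KDM5B), and in 65.1% of all 35116 promoters. The motif known for the first zinc finger domain of EVI1, searched as AAGATAA, was in none of the 8 and in 2.94% of all promoters. An element of its second domain, searched as GATGAG, was in none of the 8 and in 10.1% of all promoters. The number of CG dinucleotides was 27 for KDM5B, 21 for HDAC1 and 12 for RBBP5, against a median of 11 over all promoters. All 3 motifs were searched on both strands. These matches describe letters in a window and were not tested as binding sites.

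The deposited values were on a log2 scale, ran from -4.49 to 4.91, and had a mean of 0 within each batch for every gene. A value of 0 is thus the average of that gene over the 8 samples of its batch, levels cannot be compared between genes, and differences between samples of the same batch are not affected by the centring. Read counts were not used here and the depth is unknown. Gene labels looked right on chromosome 1, where 50.7% of annotated protein-coding genes and 2.39% of other genes had a row. On chromosomes 2 to 22 the same shares were 19.3% and 16.4%, so rows labelled with genes of those chromosomes entered the fit as measurements but are not named here, with 1 exception. The row labelled CACNB3 was 2.62 or higher in the EVI1-WT and EVI1-AQA samples and -1.64 or lower in the others, except in 3 libraries. It was 4.36 in the library labelled empty vector with H2O2 in batch 2, -4.38 in that labelled EVI1-WT with H2O2 in batch 2 and -2.60 in that labelled EVI1-AQA with H2O2 in batch 1. The transfected gene itself was not analysed here. The limma fits below were also run without these 3 libraries, and pair counts, exact tests, ranges and correlations used all 24 samples. None of 17 marker genes of blood, endothelium, epidermis and muscle on chromosome 1 had a row.

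**Figure D1:**
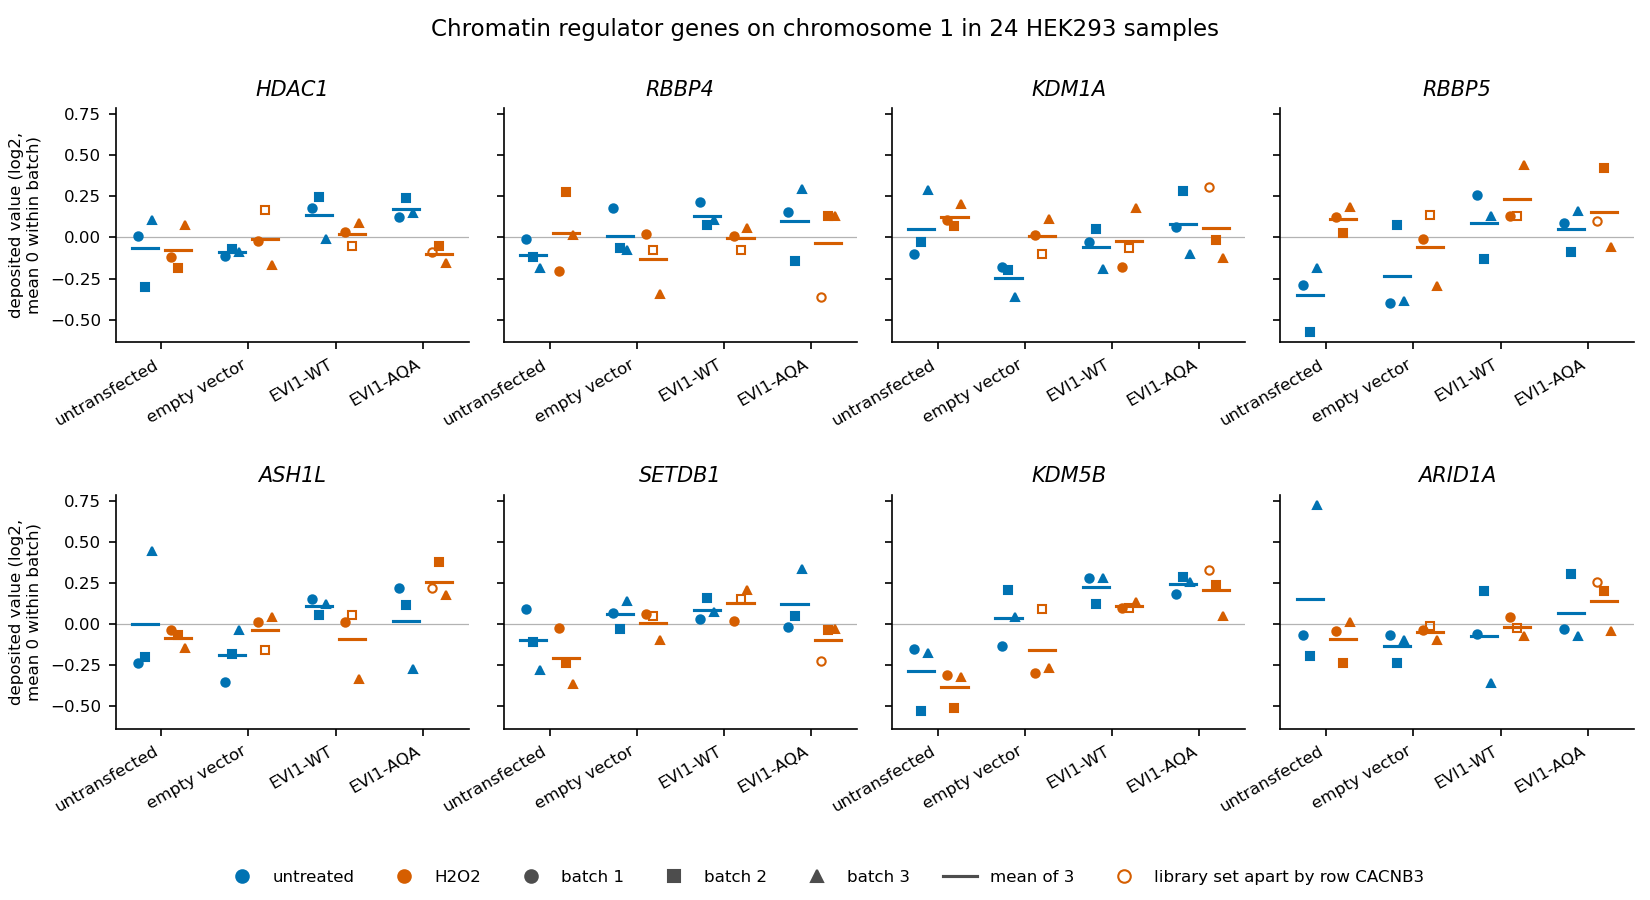
Deposited log2 values (vertical axis, mean 0 within batch) of the 8 genes in all 24 samples, by transfection state. Blue is untreated and orange is H2O2, marker shapes give the batch, short lines give the mean of 3 samples, and open markers are the 3 libraries set apart by the row labelled CACNB3. KDM5B was below 0 in all 6 untransfected samples and above 0 in all 12 EVI1 samples, and the other genes overlapped between states.

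The 8 genes varied little. Their SD over the 24 samples ran from 0.14 for HDAC1, with a smaller SD in 4.98% of all rows, to 0.26 for KDM5B, with a smaller SD in 48.2%. The range of the 8 group means was 0.62 for KDM5B, 0.58 for RBBP5 and 0.45 for ASH1L, and between 0.26 (RBBP4) and 0.37 (KDM1A) for the other 5. The pooled SD within groups was 0.12 for HDAC1, 0.14 for KDM5B, 0.20 for RBBP5 and 0.23 for ARID1A. When group means were put in order, all 7 gaps between neighbours were smaller than this SD for 6 of the 8 genes, and 6 of 7 were for KDM5B and KDM1A. With 8 means in ranges of this size most gaps are small in any case, and the SD is that of single samples. This count thus does not measure whether groups differ. In the test across the 8 groups (F-test in limma, with Benjamini-Hochberg adjustment over all rows), KDM5B passed with an adjusted p of 0.00785, and none of the other 7 did. RBBP5 came next with an unadjusted p of 0.0247 and an adjusted p of 0.0881. That is 1 of 8 genes, against 18.4% of all rows at an adjusted p under 0.05 and 19.1% at an unadjusted p under 0.01. The KDM5B call was kept with the batch as a block (adjusted p = 0.0274), but was lost when any 1 batch was left out, with limma adjusted p of 0.0882, 0.0992 and 0.133 without batch 1, 2 and 3. Fewer rows passed in all in those fits, 635, 12 and 136 of 11579, against 2136 with all batches.

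KDM5B, the demethylase that erases the active promoter mark, was lowest in untransfected cells and highest in cells with either EVI1 construct. In untreated untransfected cells it was -0.15, -0.53 and -0.18 in batches 1, 2 and 3. With H2O2 these cells gave -0.31, -0.51 and -0.32. All 6 untransfected samples were thus below the batch average of the gene, with batch 2 the lowest. Empty vector cells gave -0.14, 0.21 and 0.05 untreated and -0.30, 0.09 and -0.27 with H2O2, so batch 2 was the highest of the 3 in both treatments. EVI1-WT cells gave 0.28, 0.12 and 0.28 untreated and 0.10, 0.10 and 0.13 with H2O2. EVI1-AQA cells gave 0.18, 0.28 and 0.26 untreated and 0.33, 0.24 and 0.05 with H2O2. The 12 EVI1 samples, from 0.05 to 0.33, did not overlap with the 6 untransfected samples, from -0.53 to -0.15, and empty vector samples overlapped with both. How many of all rows separate in this way was not counted, here or for the other genes below. At an adjusted p under 0.05 in limma, 18.7% of all rows passed for EVI1-WT minus untransfected and 15.6% for EVI1-AQA minus untransfected.

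**Figure D2:**
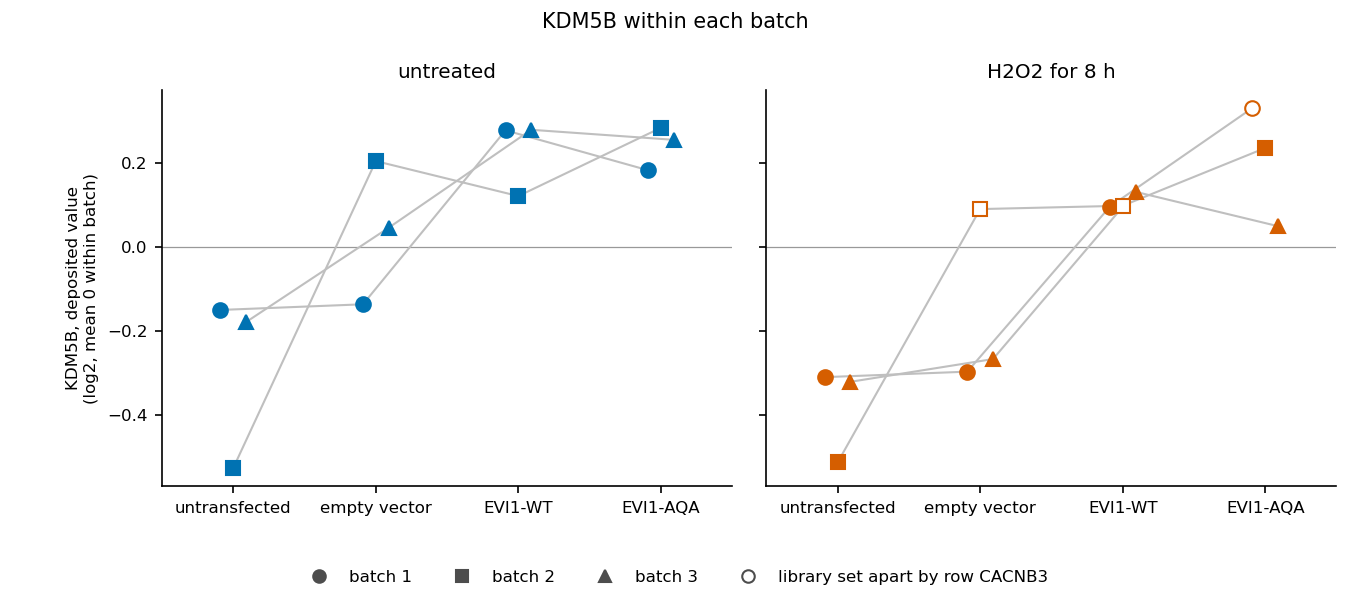
KDM5B in each batch (lines join the 4 samples of a batch), in untreated cells and in cells with H2O2. The vertical axis is the deposited log2 value with a mean of 0 within batch, and open markers are the 3 libraries set apart by the row labelled CACNB3. In every batch and both treatments each EVI1 sample was above the untransfected sample, and the empty vector samples of batch 2 were the highest empty vector samples.

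KDM5B was 0.50 higher in EVI1-WT than in untransfected cells on the log2 scale (SE 0.093, 1.41-fold), averaged over both treatments, with a limma adjusted p of 0.00153. The difference was 0.42, 0.63 and 0.46 in batches 1, 2 and 3. For EVI1-AQA it was 0.56 (SE 0.093, 1.47-fold, limma adjusted p = 0.00110), and 0.49, 0.78 and 0.40 by batch. Both differences were above 0 in 6 of 6 same-batch pairs, with an exact permutation p of 0.0313 (two-sided), the smallest that 6 pairs can give. That p takes the untreated and the treated pair of a batch as independent. Without the 3 libraries they were 0.50 and 0.53, with limma adjusted p of 0.00243 and 0.00225, and with the batch as a block the adjusted p were 0.00496 and 0.00414. Both calls were kept when any 1 batch was left out. Within untreated cells alone the EVI1-AQA difference of 0.53 passed (limma adjusted p = 0.0132), also with the block (0.0299) and without the 3 libraries (0.0125). The EVI1-WT difference of 0.51 in untreated cells passed (limma adjusted p = 0.0246) but missed with the batch as a block (adjusted p = 0.0533). Within H2O2 the EVI1-AQA difference of 0.59 passed (limma adjusted p = 0.0278) but missed with the block (0.0729) and without the 3 libraries (0.0513), and the EVI1-WT difference of 0.49 missed (0.0620).

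Against the empty vector, which controls for transfection, the same gene gave smaller differences. KDM5B was 0.23 higher in EVI1-WT (SE 0.093, limma adjusted p = 0.540), in 5 of 6 pairs (exact permutation p = 0.0938, two-sided). By batch the difference was 0.40, -0.04 and 0.32. In EVI1-AQA it was 0.28 higher (SE 0.093, limma adjusted p = 0.335), in 6 of 6 pairs (exact permutation p = 0.0313, two-sided), and 0.47, 0.11 and 0.26 by batch. Neither passed the adjusted threshold, and without the 3 libraries the differences were 0.29 and 0.31 with limma adjusted p of 0.261 and 0.273. The empty vector itself was 0.27 above untransfected cells (SE 0.093, limma adjusted p = 0.104), in 6 of 6 pairs. That value came mostly from batch 2, with 0.01, 0.67 and 0.14 in the 3 batches. The batch 2 pairs were 0.73 untreated and 0.60 with H2O2, and the treated empty vector library is 1 of the 3 set apart. Without the 3 libraries the difference was 0.21 (limma adjusted p = 0.279). EVI1-AQA and EVI1-WT differed by 0.06, with a 95% interval from -0.14 to 0.25, and AQA was higher in 3 of 6 pairs.

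The comparisons with untransfected cells and with the empty vector share the EVI1 samples, and the background of all rows differed between them. Of the 8 genes, 2 passed for EVI1-WT minus untransfected, KDM5B and SETDB1, where 18.7% of all rows did. For EVI1-AQA minus untransfected 1 of 8 passed, KDM5B, against 15.6%. None of the 8 passed for the empty vector minus untransfected cells, where 2.28% of all rows did. None of the 8 passed for EVI1-WT minus empty vector, where no row of 11579 did (0%). None passed for EVI1-AQA minus empty vector, where 4 rows did (0.0345%). These backgrounds depend on the 3 libraries set apart above. Without them 20 rows passed for EVI1-WT minus empty vector and 5 for EVI1-AQA minus empty vector, and again none of the 8 genes.

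At an unadjusted p under 0.05 in limma, 2 of 8 genes (KDM1A and KDM5B) were counted for the empty vector minus untransfected cells, against 20.8% of all rows. The 2 counted for EVI1-WT minus empty vector were RBBP5 and KDM5B, both higher, against 8.19% (948 rows). For EVI1-AQA minus empty vector the 3 counted were RBBP5, ASH1L and KDM5B, all higher, against 9.89%. With the batch as a block 1 gene, KDM5B, was left of the 3, and 1, also KDM5B, of the 2 for the empty vector minus untransfected cells. With so few genes these counts are given as a description. All 8 differences were above 0 for EVI1-WT minus empty vector, with a median of 0.12, and 7 of 8 for EVI1-AQA minus empty vector, with a median of 0.19, where SETDB1 was at -0.02. The medians over all rows were -0.0026 and -0.0030. These signs are not 8 independent observations, since both comparisons rest on the same 6 empty vector samples.

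**Figure D3:**
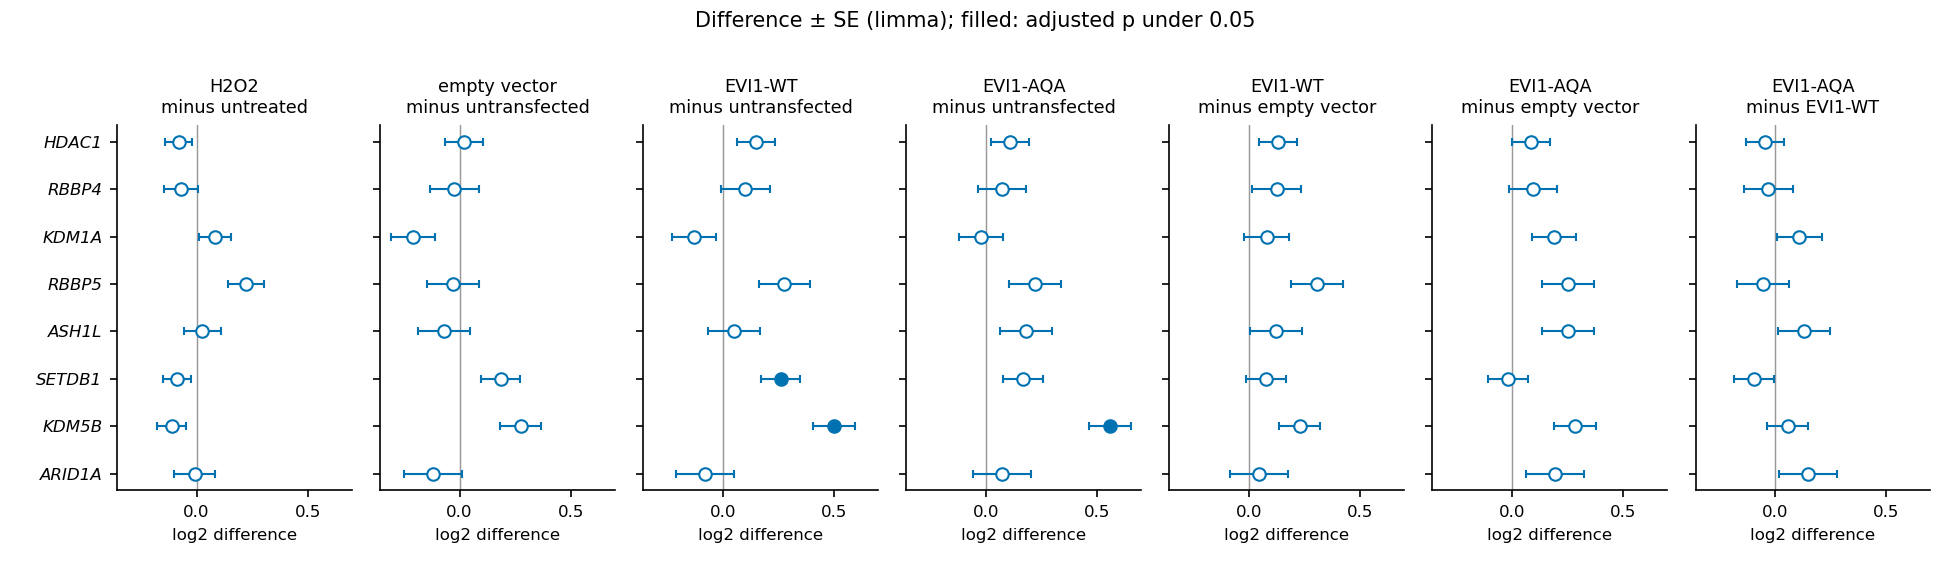
Log2 differences of the 8 genes in 7 comparisons (horizontal axis, points with SE from limma). Filled points have an adjusted p under 0.05. They are KDM5B and SETDB1 for EVI1-WT minus untransfected and KDM5B for EVI1-AQA minus untransfected, and all differences of EVI1-AQA minus EVI1-WT lay between -0.09 and 0.15.

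SETDB1, the methyltransferase of silent chromatin, was above 0 in all 6 EVI1-WT samples and in 1 of 6 untransfected samples. The EVI1-WT samples gave 0.03, 0.16 and 0.08 untreated and 0.02, 0.15 and 0.21 with H2O2 in batches 1, 2 and 3. The untransfected samples gave 0.09, -0.11 and -0.28 untreated and -0.02, -0.23 and -0.36 with H2O2. In batch 1 the states overlapped, and in batches 2 and 3 they did not. The difference was 0.26 (SE 0.089, 1.20-fold, limma adjusted p = 0.0466) and higher in 5 of 6 pairs, but -0.01, 0.33 and 0.46 by batch. The call was lost with the batch as a block (adjusted p = 0.0810), without the 3 libraries (0.0822) and without batch 2 or batch 3. The empty vector samples were already 0.18 above the untransfected ones (SE 0.089, limma adjusted p = 0.243), in 5 of 6 pairs. EVI1-AQA samples ranged from -0.23 to 0.34 with a median of -0.02, and their difference from untransfected cells of 0.17 did not pass (limma adjusted p = 0.212). SETDB1 was lower with H2O2 in 10 of 12 same-batch pairs, by a mean of -0.09 (exact permutation p = 0.0488, two-sided, limma adjusted p = 0.375).

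HDAC1 had the smallest spread of the 8 genes. Untreated, it was 0.01, -0.30 and 0.10 in untransfected cells and -0.11, -0.07 and -0.09 in empty vector cells, in batches 1, 2 and 3. Untreated EVI1-WT cells gave 0.18, 0.25 and -0.01. Untreated EVI1-AQA cells gave 0.13, 0.24 and 0.15, all above the 3 empty vector samples. With H2O2 the values were -0.12, -0.19 and 0.08 in untransfected cells and -0.02, 0.17 and -0.17 in empty vector cells. EVI1-WT cells with H2O2 gave 0.03, -0.05 and 0.09, and EVI1-AQA cells gave -0.09, -0.05 and -0.16. All 3 treated EVI1-AQA samples were thus below all 3 untreated ones, and how many of all rows show this was not counted.

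The HDAC1 difference between EVI1-AQA and empty vector was 0.26 in untreated cells (SE 0.12, limma adjusted p = 0.314) and -0.09 with H2O2. The change of that difference with H2O2 was -0.36 (SE 0.17, limma adjusted p = 0.350). It was -0.27 without the 3 libraries, with a limma p of 0.173. Of the 8 genes HDAC1 alone was counted at an unadjusted p under 0.05 for this change, against 14.2% of all rows. None of the 8 was counted for the change with H2O2 of EVI1-WT minus empty vector, where 3.41% of all rows were, or of EVI1-AQA minus EVI1-WT, where 9.78% were. Averaged over both treatments, HDAC1 was 0.13 higher in EVI1-WT and 0.09 higher in EVI1-AQA than with empty vector, with 95% intervals from -0.05 to 0.31 and from -0.09 to 0.26.

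RBBP4, the histone-binding partner of HDAC1, passed no test and reached no unadjusted p under 0.05 in the averaged comparisons. Its group means ran from -0.13 in treated empty vector cells to 0.13 in untreated EVI1-WT cells. By batch, its difference between EVI1-AQA and empty vector was -0.20, 0.06 and 0.42, a wider spread than the 0.26 between its highest and lowest group means. KDM1A, the CoREST demethylase, was lower with the empty vector than in untransfected cells in 6 of 6 pairs, by a mean of -0.21 (exact permutation p = 0.0313, two-sided, limma adjusted p = 0.239). In untreated empty vector cells it was -0.18, -0.20 and -0.36, the lowest group mean of the gene at -0.25. Without the 3 libraries the difference was -0.18, and the limma adjusted p was 0.400.

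RBBP5, the subunit of the MLL family complexes, was higher with H2O2 in 10 of 12 same-batch pairs, by a mean of 0.22 on the log2 scale (SE 0.082, 1.17-fold). The exact permutation p was 0.0146 (two-sided), and the limma adjusted p over all rows was 0.0675. In untransfected cells it was -0.29, -0.57 and -0.18 untreated and 0.13, 0.03 and 0.19 with H2O2, so the 3 treated samples were above the 3 untreated ones. That difference was 0.46 (SE 0.16, limma adjusted p = 0.181), and in the other states it was 0.18 with empty vector, 0.15 with EVI1-WT and 0.10 with EVI1-AQA. By batch, the average over the 4 states was 0.17, 0.36 and 0.14. The effect in untransfected cells did not pass the test of a difference from that in empty vector, EVI1-WT or EVI1-AQA cells (limma adjusted p of 0.999, 0.915 and 0.465). RBBP5 was also 0.31 higher in EVI1-WT than with the empty vector (SE 0.12, limma adjusted p = 0.507), but 0.40, -0.10 and 0.63 by batch. Against untransfected cells EVI1-WT was higher in 6 of 6 pairs by a mean of 0.28 (exact permutation p = 0.0313, two-sided, limma adjusted p = 0.0981), with 0.28, 0.27 and 0.28 by batch. The pairs behind these averages were uneven, at 0.55, 0.44 and 0.32 in untreated cells and 0.0026, 0.10 and 0.25 with H2O2.

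ASH1L was higher in EVI1-AQA than with the empty vector in 5 of 6 pairs by a mean of 0.25 (SE 0.12, exact permutation p = 0.125, two-sided, limma adjusted p = 0.489). By batch the difference was 0.39, 0.41 and -0.05. With H2O2, ASH1L was 0.35 higher in EVI1-AQA than in EVI1-WT (SE 0.16, 95% interval from 0.0043 to 0.69, limma adjusted p = 0.469), with 0.21, 0.32 and 0.52 by batch. The unadjusted limma p was 0.0474, and 0.0646 with the batch as a block. At an unadjusted p under 0.05 in this comparison 1216 of 11579 rows were counted. The pairs of batches 1 and 2 each hold 1 of the 3 libraries set apart. Without these libraries the ASH1L difference was 0.44, with a limma p of 0.0504. ARID1A, the remodelling subunit, was higher in EVI1-AQA than in EVI1-WT in 6 of 6 pairs by a mean of 0.15 (exact permutation p = 0.0313, two-sided), with 0.12, 0.17 and 0.16 by batch. The same gene was higher in EVI1-AQA than with the empty vector in 6 of 6 pairs by a mean of 0.19, with the same exact permutation p. limma, which pools the spread over all samples, gave these ARID1A differences an unadjusted p of 0.268 and 0.155. Without the 3 libraries they were 0.12 and 0.17, with limma p of 0.463 and 0.284. In the untreated untransfected sample of batch 3, ARID1A was 0.72 and ASH1L 0.45, their highest values in the series. Averaged over both treatments, the difference between EVI1-AQA and EVI1-WT had for all 8 genes a 95% interval that included 0, and at an unadjusted p under 0.05 none was counted, against 5.39% of all rows, while no row passed the adjusted threshold (0%, with 624 rows at an unadjusted p under 0.05). Among the 56 exact tests over same-batch pairs, 11 had a p under 0.05 without adjustment. These tests share samples and were not run on other rows, so the count has no background to be read against.

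H2O2 moved none of the 8 genes past the adjusted threshold when averaged over the 4 states, while 16.5% of all rows passed. At an unadjusted p under 0.05 in limma only RBBP5 was counted of the 8, against 31.1%. The differences ran from -0.11 for KDM5B to 0.22 for RBBP5, with a median of -0.04. KDM5B was lower with H2O2 in 10 of 12 same-batch pairs (exact permutation p = 0.00977, two-sided), and limma gave an unadjusted p of 0.107. Without the 3 libraries the difference of KDM5B was -0.16, with a limma p of 0.0345 and an adjusted p of 0.139.

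**Figure D4:**
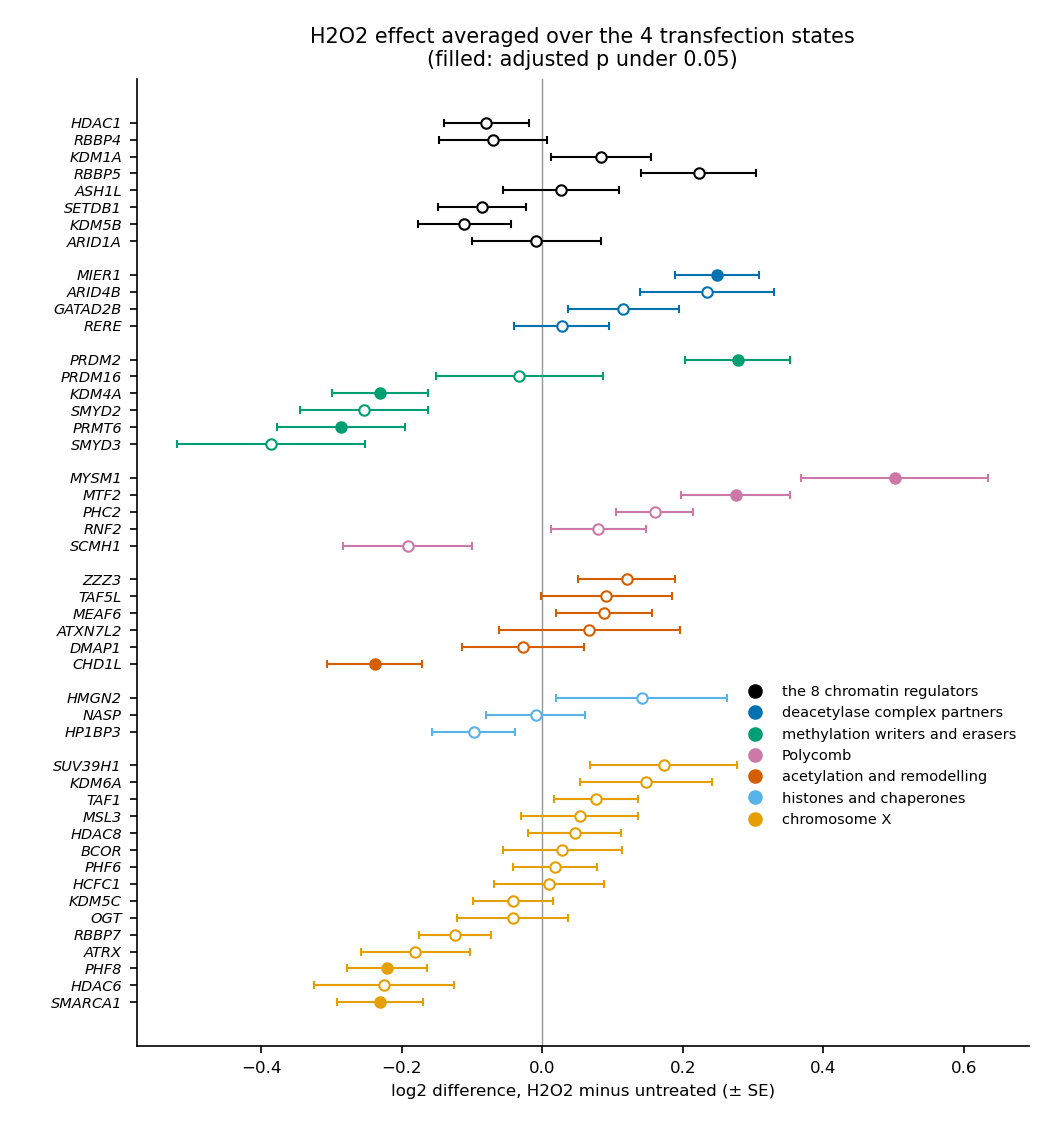
Log2 differences of H2O2 minus untreated, averaged over the 4 transfection states, with SE from limma, for the 8 genes (black) and other chromatin genes of chromosomes 1 and X by list. Filled points have an adjusted p under 0.05. No filled point is among the 8 genes, and the filled points of the other genes run from -0.29 for PRMT6 to 0.50 for MYSM1.

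Other chromatin genes of chromosome 1 moved with H2O2 in both directions. Of 26 listed, 24 had a row (CHD5 and H3F3A did not), and 7 passed the adjusted threshold, 4 up and 3 down, against 16.5% of all rows. With so few genes this count is given as a description. MIER1, which binds HDAC1 in a corepressor complex, rose by 0.25 (SE 0.060, limma adjusted p = 0.00781), and was the 1 of 4 deacetylase partners called. Among 5 Polycomb-related genes, MYSM1, a histone deubiquitinase, rose by 0.50 (limma adjusted p = 0.0141) and MTF2, a Polycomb-associated protein, rose by 0.28 (0.0196). Of 6 methylation writers and erasers, PRDM2 rose by 0.28 (limma adjusted p = 0.0145), the demethylase KDM4A fell by 0.23 (0.0238) and the arginine methyltransferase PRMT6 fell by 0.29 (0.0359). CHD1L, an ATP-dependent remodeller, fell by 0.24 (limma adjusted p = 0.0201) and was the 1 of 6 acetylation and remodelling genes called. None of 3 histone and chaperone genes passed. Without the 3 libraries MTF2, MYSM1, PRMT6 and KDM4A missed (limma adjusted p of 0.0896, 0.0575, 0.114 and 0.0578), and PRMT6 also missed with the batch as a block (0.0615).

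On chromosome X, which holds paralogues and partners of the 8, PHF8 fell by 0.22 and SMARCA1 fell by 0.23 with H2O2 (limma adjusted p of 0.0121 and 0.0140). They were 2 of 15 genes, against 16.5% of all rows. RBBP7, the paralogue of RBBP4, and KDM5C, the paralogue of KDM5B, did not pass. In the comparisons with untransfected cells 3 of the 24 genes on chromosome 1 and 3 of the 15 on chromosome X passed for EVI1-WT, against the 18.7% of all rows given above, and 2 of 24 and 2 of 15 for EVI1-AQA, against 15.6%. MIER1 rose with both constructs, by 0.37 with EVI1-WT and 0.36 with EVI1-AQA (limma adjusted p of 0.00555 and 0.00884). OGT, the enzyme that adds N-acetylglucosamine to nuclear proteins, fell by 0.53 and by 0.43 (limma adjusted p of 0.00354 and 0.0141). HDAC8, a deacetylase, rose by 0.35 with EVI1-AQA (limma adjusted p = 0.0162). With EVI1-WT it rose by 0.31, which was lost with the block (adjusted p = 0.0521) and without the 3 libraries (0.0644). The other calls for EVI1-WT were RERE, which rose by 0.30, PHF8, which rose by 0.24, and PRDM16, which fell by 0.50 (limma adjusted p of 0.0352, 0.0405 and 0.0451). The other call for EVI1-AQA was ARID4B, which rose by 0.43 (limma adjusted p = 0.0374). These 4 calls were lost with the batch as a block (adjusted p of 0.0636, 0.0744, 0.0711 and 0.0638). In the F-test across the 8 groups 2 of 24 genes on chromosome 1 (MIER1 and SMYD3) and 2 of 15 on chromosome X (PHF8 and OGT) passed, against 18.4% of all rows. MIER1 alone of these passed the F-test with the block (adjusted p = 0.0266). None of these list genes passed for EVI1-WT or EVI1-AQA minus empty vector or for the empty vector minus untransfected cells.

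Over the 24 samples the row of chromosome 1 most like KDM5B was PPP1R12B, a myosin phosphatase subunit whose gene lies 0.132 Mb away, with a Pearson correlation of 0.89 among 1130 rows compared. The best match of each of the other 7 genes had a correlation between 0.63 (RPS6KA1 for ARID1A) and 0.77 (PHF13 for RBBP5). For HDAC1 the most alike was ARNT, at 0.73. Among the 28 pairs of the 8 genes themselves, correlations ran from -0.50 for KDM1A with SETDB1 to 0.60 for KDM1A with ARID1A, with a median of 0.21, against a median of 4.7e-05 over all pairs of chromosome 1 rows. HDAC1 and its partner RBBP4 had a correlation of 0.22, and HDAC1 and KDM5B 0.55. These points share libraries and a centring by batch, so the correlations are given as a description.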

How the data were processed

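The series holds 24 HEK293 samples in 8 groups of 3. Libraries were made by the authors with the Lexogen QuantSeq 3′ kit (FWD) and sequenced on a NextSeq500. Per the labels the build was GRCh38, and the methods name Ensembl annotation, an FPKM cut-off and Qlucore Omics Explorer; the aligner is not given in the sources used here. The authors deposited 1 matrix of normalized log2 values, centred within each batch; the base of the logarithm was settled from the values. No replicate pair of columns was identical, and no columns of other samples were left unused (0). The file holds no counts, so no depth or counting error is given.

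One model over all 11579 rows was run in limma 3.58.1 (R 4.3.3; 8 group means, empirical Bayes, two-sided, Benjamini-Hochberg over all rows). A gene was called at an adjusted p under 0.05. The values were already centred within batch, which this fit did not count (16 residual degrees of freedom, against 14 with the batch as a block). Its SE and p are thus too small, and the fit with the block is the stricter one. In the F-test 911 rows passed with the block, against 2136 without it. For EVI1-WT minus untransfected 1540 rows passed with the block, against 2165. Exact permutation tests exchanged signs over same-batch pairs (12 for H2O2, 6 for a construct). Each sign was exchanged on its own, so pairs from the same batch were taken as independent. Where such pairs move together, the exact permutation p are too small. The fit was tested on simulated data. The labels call the replicate number a batch, so same-numbered samples were paired by batch. Nothing in the labels says whether samples of a group came from separate cultures, so p-values measure the spread between these samples. The named genes were the 8 genes, all of them, the called genes of the other chromatin lists, and the closest row of chromosome 1 for each; the rule gave further rows for HDAC1, which are not reported here. The genes, lists and motifs were chosen with earlier results of these data known. The 3 libraries were set apart by the same earlier results. Alternatives were the batch as a block, median centring, quantile normalization, no moderation, leaving out each batch or the 3 libraries, chromosome 1 rows alone and untransfected cells as reference. Promoters came from RefSeq (GRCh38.p14) and gene positions from GENCODE.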

Additional observations from a re-analysis of the deposited data

Results flagged for a closer look

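The HDAC1 difference between EVI1-AQA and empty vector changed with H2O2 by -0.36 on the log2 scale, from 0.26 in untreated cells to -0.09 with H2O2. It stands here because the test of the change itself gave an unadjusted limma p of 0.0494. The limma adjusted p was 0.350, and with the batch as a block the unadjusted p was 0.0722. All 3 untreated pairs were above 0. Of the 6 treated libraries behind it, 2 are among those set apart by the row labelled CACNB3 (empty vector in batch 2 and EVI1-AQA in batch 1). Their part in the change was not tested beyond leaving them out, which gave -0.27.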

How the results depend on the processing

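With untransfected cells in place of the empty vector, 2 of the 8 genes were called for EVI1-WT and 1 for EVI1-AQA, against 0 in each with the empty vector. KDM1A then gave -0.13 and -0.021 for EVI1-WT and EVI1-AQA, SETDB1 gave 0.17 for EVI1-AQA and ARID1A gave -0.078 for EVI1-WT, each of the opposite sign to its value against the empty vector. The F-test called 0 of the 8 without any 1 batch, against 1, in fits that called 635, 12 and 136 of all rows without batch 1, 2 and 3. The replicate block (the batch number) gave the same differences and the same number of called genes in the comparisons with the empty vector, with H2O2 and in the F-test. For EVI1-WT against untransfected cells it left 1 call of 2, that of KDM5B. Of the 416 values recomputed, 385 kept their direction and their side of the threshold. The main values all came from comparisons in which none of the 8 genes was called. The block, no moderation and chromosome 1 rows alone leave every difference the same. That count was thus largely fixed in advance and does not measure how firm the calls against untransfected cells are.

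The other changes of sign were of uncalled differences. In the main fit these ran from -0.12 (ARID1A, empty vector minus untransfected) to 0.095 (RBBP4, EVI1-AQA minus empty vector). Quantile normalization gave -0.0061 for HDAC1 (empty vector minus untransfected) and 0.00066 for ARID1A (H2O2). Without the 3 libraries, HDAC1 gave -0.023 in that comparison, RBBP4 gave 0.033 for EVI1-AQA minus EVI1-WT and SETDB1 gave 0.025 for EVI1-AQA minus empty vector. With the replicate block as well, a fit chosen after seeing the data, these were -0.028, 0.052 and 0.038. Leaving out each batch in turn, H2O2 minus untreated ran from -0.17 to 0.029 for RBBP4, from -0.013 to 0.10 for ASH1L and from -0.068 to 0.036 for ARID1A. The empty vector minus untransfected ran from -0.12 to 0.14 for HDAC1, from -0.14 to 0.040 for RBBP4, from -0.23 to 0.13 for RBBP5 and from -0.23 to 0.050 for ARID1A. EVI1-AQA minus empty vector ran from -0.068 to 0.24 for RBBP4 and from -0.093 to 0.065 for SETDB1. EVI1-AQA minus EVI1-WT ran from -0.11 to 0.062 for RBBP4 and from -0.17 to 0.035 for RBBP5, and EVI1-WT minus empty vector from -0.039 to 0.12 for ARID1A. The cause of these changes was not tested. With 3 samples a group and no depth, small differences cannot be told from the spread between batches.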
